A study of Danio rerio with 46 samples.

Results

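The genes described here are those whose names mark them as apolipoproteins, serpins, inter-alpha-trypsin inhibitor (ITIH) heavy chains, fibrinogen chains or numbered clotting factors. They were measured in zebrafish (Danio rerio) that had lived through a warm juvenile period and in controls that had not. The genes were picked by a pattern on the gene names alone, and 54 of the 31475 rows of the expression table matched it. Of these, 36 belong to classes whose products circulate in blood plasma: 12 apolipoproteins, 8 clotting factors, 3 fibrinogen chains, 9 serpins of the plasma type and 4 ITIH chains. The other 18 go against the idea of a liver plasma protein, and they are 6 clade B serpins, which act inside cells, 7 serpins made in other tissues, and 5 genes that only share letters with the pattern. Those 5 are apoa1bp (now naxe, an NAD(P)HX epimerase), apobec2a (a relative of the cytidine deaminases, expressed in muscle), the junctional adhesion molecule genes f11r and f11rl, and the thrombin receptor gene f2r. The 36 and the 18 are therefore given apart throughout.

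From 18 to 32 days of age the fish lived in water of 36 °C (heat-exposed) or 28 °C (control), and all were at 28 °C from then until sampling. The arrays were of 10 heat-exposed and 8 control juvenile trunks at 37 days, with sex unknown, and, at 90 days, of 4 heat-exposed and 4 control ovaries and of 10 heat-exposed and 10 control testes. Each of the 46 samples was hybridised to its own one-colour NimbleGen array, and the arrays were described as biological replicates. The comparison of temperatures asks what a past heat exposure left behind in the trunk 5 days later and in the gonad of the adult.

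The liver makes most of the proteins dissolved in plasma. Apolipoproteins hold lipids in particles that travel through blood: apoB forms the shell of large triglyceride-carrying particles, apoA-I that of high-density lipoprotein, and apoC and apoE chains decide which lipases and receptors a particle meets. Clotting factors circulate as inactive protease precursors or cofactors, thrombin cuts fibrinogen into the fibrin of a clot, and serpins such as antithrombin trap single protease molecules and so end the reaction. In egg-laying vertebrates the ovary also takes up lipoproteins from plasma, and several clotting and fibrinolysis genes are expressed in follicles.

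Values are log2 signals, so a difference of 1 is a doubling, and they came ready-normalised from the study. A gene was called where its difference passed an adjusted p of 0.05 in a limma fit to all 31475 rows. Upper quartiles of the arrays lay between 10.90 and 10.95 in trunks and between 10.64 and 10.72 in gonads, so trunk and gonad levels are set side by side without a test. Adult gonads also carried signal of digestive organ markers. Control testis 1 had a mean of 11.22 over 14 hepatocyte markers, where the median of control testes was 8.78. Heat testis 8 had 10.63 over 12 intestine markers, where the median of heat-exposed testes was 7.50. Over 13 exocrine pancreas markers the mean was 12.15 in control testes and 13.42 in control trunks. The oocyte and spermatogenic cell marker lists matched the tissue labels with these exceptions. Heat ovaries 2 and 4 had means of 12.63 and 12.52 over 14 spermatogenic cell markers, against 8.82 and 9.10 in heat ovaries 1 and 3, 8.53 to 9.13 in control ovaries and 12.58 to 13.03 in heat-exposed testes. Their means over 13 oocyte markers were 12.12 and 12.57, against 13.61 and 13.64 in heat ovaries 1 and 3. In the trunks, all 13 oocyte markers were called lower after heat exposure, and the means of the list ran between 6.19 and 8.98 on heat-exposed trunks and between 8.72 and 13.44 on control trunks. Heat trunks 1, 2 and 10 also stood apart from the other trunks in earlier results of these data, so that counts which rest on them are given without them too. As these are bulk samples, fewer cells of a type and less RNA per cell cannot be told apart.

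Plasma protein genes were high in whole trunks, which hold the liver, and lower in the adult gonads. For 28 of the 36 plasma genes the lowest of the 18 trunks lay above the highest of the 28 gonads. The same was true of 4 of the other 18 genes, among them apobec2a, serpinb1l4 and serpinh1b, and of 12.8% of all rows. Antithrombin (serpinc1) ran between 13.46 and 14.02 in trunks and between 4.92 and 8.24 in gonads. Apolipoprotein M (apom), the lipocalin that carries sphingosine 1-phosphate on high-density lipoprotein, ran between 14.75 and 15.42 in trunks and between 7.02 and 10.64 in gonads. Apolipoprotein A-I (apoa1a) exceeded 15 on all 18 trunks, near the top of the table's range, where the scale leaves little room for a further rise. The 8 plasma genes with overlapping ranges were apob, f8, f9a, f9b, itih5, itih6, serpina10a and serping1. Of these, serping1 (C1 inhibitor) lay below the lower quartile of the array on 44 of 46 arrays, so its changes could hardly be seen in any tissue.

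**Figure D1:**
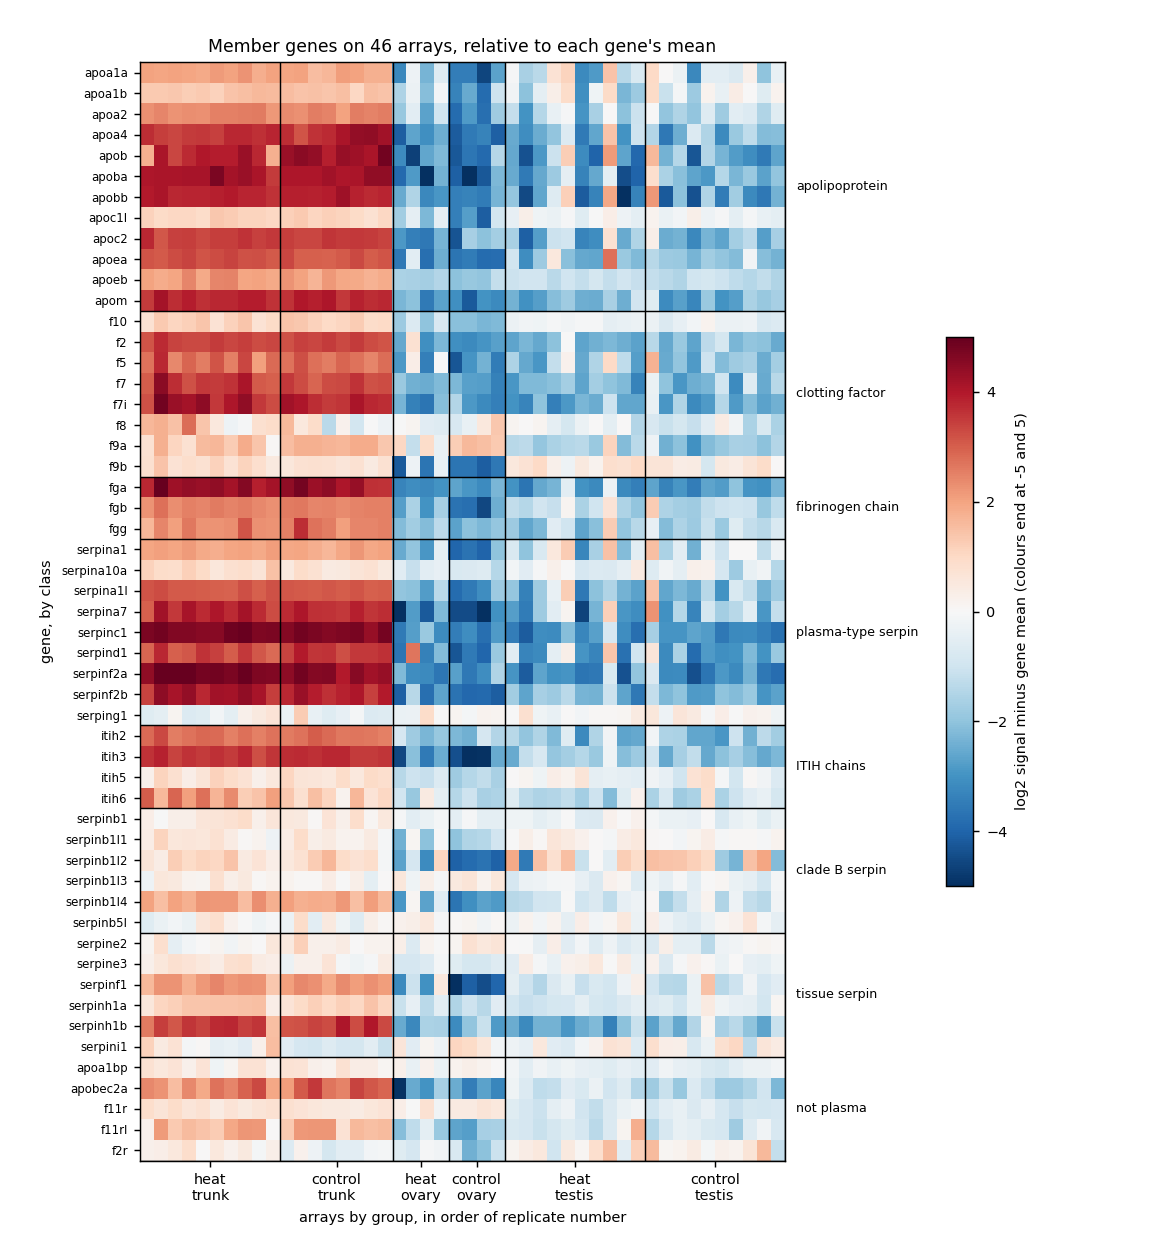
Log2 signal of 53 of the 54 genes (rows, by class) on the 46 arrays (columns, by group and replicate number), each drawn as its difference from the gene's mean over all arrays, from -5 (blue) to 5 (red). Most rows of the plasma classes are red on all 18 trunks and blue on most gonads, while f8, serping1, serpini1 and the clade B serpins other than serpinb1l4 show no such divide.

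Within a group, SDs of the plasma genes were smaller in trunks than in gonads. The median SD over the 36 genes was 0.26 among heat-exposed trunks and 0.18 among control trunks, where the median SD of all rows was 0.43 and 0.37. It was 0.93 among heat-exposed testes and 0.80 among control testes, against 0.50 and 0.45 for all rows. Among heat-exposed ovaries it was 0.76 and among control ovaries 0.65, against 0.69 and 0.40 for all rows. Several of these genes lay near the top of the scale, where SDs can be small: 7 of the 36 exceeded 15 on most trunks. Over the 26 plasma genes that exceeded 15 on no trunk, the median SD was 0.33 among heat-exposed and 0.21 among control trunks, and 0.85 among heat-exposed and 0.68 among control testes. Rows of all levels enter the SD of all rows. The gene with the widest spread in both testis groups was apobb (current symbol apobb.1), one of 3 apoB rows, with an SD of 2.42 in heat-exposed and 1.90 in control testes. In heat-exposed testes its values ran from 6.06 through a median of 8.39 to 13.28, and in control testes from 7.02 through 8.59 to 13.53. Testes with high and with low apobb values were thus found at both temperatures.

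The 3 apoB rows (apob, apoba and apobb) and the pair apoa1a and apoa1b bear the names of gene copies. No sequence of them was compared, and as transcripts of such copies may share probes, their rows may not be independent.

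Between heat-exposed and control juvenile trunks, 4 of the 54 genes were called higher and 0 lower. Of all rows 8.59% were called higher and 5.96% lower, so the upward count is near the share of all rows. An unadjusted p below 0.05 was found for 11 of the 54 and for 9089 of the 31475 rows. Of the 4, only itih6 belongs to a plasma class, and none of the 12 apolipoproteins, 8 clotting factors, 3 fibrinogen chains or 9 plasma-type serpins was called in either direction. For the 7 plasma genes that exceeded 15 on most trunks, near the top of the scale, a change could be hidden. Without heat trunks 1, 2 and 10 the counts were again 4 higher and 0 lower. The median difference over the 54 genes was 0.03, beside 0.04 over all rows. None of the 54 genes had trunk groups that were apart, as 0.616% of all rows did upward and 0.499% downward.

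The gene itih6, an ITIH heavy chain family member, had values of 8.62 to 10.43 with a median of 9.44 in heat-exposed trunks, against 7.58 to 9.06 with a median of 8.46 in control trunks. Most heat-exposed trunks lay above every control trunk, and the difference was 1.07 ± 0.26 (SE, n = 10 and 8, adjusted p = 0.0104). Neuroserpin (serpini1), a serpin of neurons that inhibits tissue plasminogen activator, ran from 7.92 through 8.67 to 10.04 in heat-exposed trunks and from 7.40 through 7.66 to 7.97 in control trunks. Its controls were close together and all but 1 of the heat-exposed trunks exceeded them, with a difference of 1.06 ± 0.24 (adjusted p = 0.0078). The 14 neuronal markers moved with it: 9 were called higher and 1 lower, and their mean ranged from 10.72 to 12.20 in heat-exposed trunks and from 10.02 to 11.18 in control trunks. The part of these cells in the result for serpini1 was not tested.

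The thrombin receptor gene f2r had values of 7.26 to 8.23 in heat-exposed trunks, median 7.66, and of 6.48 to 7.56 in control trunks, median 6.95. It was 0.70 ± 0.15 higher after heat exposure (adjusted p = 0.00527), though the groups overlapped between 7.26 and 7.56. Serpine3 was 0.45 ± 0.14 higher (adjusted p = 0.0362), with 6.06 to 6.72 in heat-exposed and 5.53 to 6.51 in control trunks, but it lay below the lower quartile of the array on 43 of 46 arrays. The call for serpine3 ended under 3 of the alternatives, with adjusted p between 0.0550 and 0.0606. F2r was not called in a model of all 46 arrays (adjusted p = 0.122). With the mean of the 14 hepatocyte markers as a covariate, itih6 and serpini1 were no longer called (adjusted p = 0.141 and 0.109).

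Some plasma genes differed by as much or more without being called. Apob was 11.68 to 14.22 in heat-exposed trunks, median 13.75, against 13.81 to 14.72 in control trunks, median 14.26, a difference of -0.87 ± 0.32 (adjusted p = 0.0775). Heat trunks 1 and 10, with 11.68 and 11.69, lay far below the other 8 heat-exposed trunks, of which the lowest had 13.24. The other 2 apoB rows gave differences of -0.04 each. Coagulation factor VIII (f8), the cofactor of factor IX, had 6.97 to 10.03 in heat-exposed and 5.90 to 8.86 in control trunks, and its difference of 1.0 ± 0.41 did not pass (adjusted p = 0.113). Of the 2 factor IX genes, f9a differed by -0.48 ± 0.20 (adjusted p = 0.12) and f9b by 0.20 ± 0.12 (adjusted p = 0.266). Alpha-2-antiplasmin (serpinf2a), the inhibitor of plasmin, came closest among the serpins, with 13.59 to 14.34 in heat-exposed and 13.10 to 13.96 in control trunks and a difference of 0.38 ± 0.13 (adjusted p = 0.0516).

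**Figure D2:**
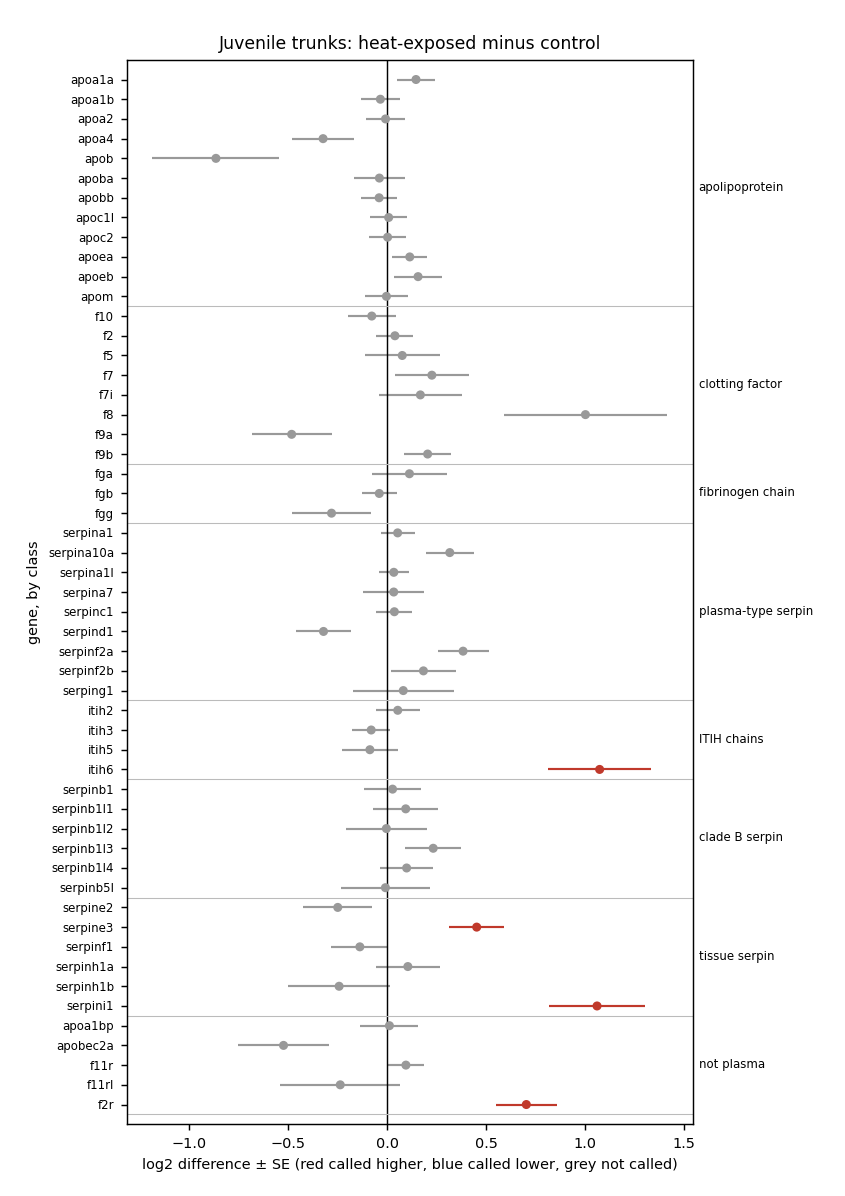
Log2 difference, heat-exposed minus control juvenile trunks, for 53 of the 54 genes by class; points are limma estimates and bars the SE (n = 10 and 8). The 4 red points (itih6, serpine3, serpini1 and f2r) were called higher, and no point was called lower.

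Among genes that act beside these proteins, most were not called. Of 26 lipoprotein enzymes, receptors and assembly factors, 2 were called higher, 4 lower and 20 not called in heat-exposed trunks, beside the 8.59% of all rows called higher and 5.96% called lower. The high-density lipoprotein receptor gene scarb1 had the lowest value, with a mean of 10.85 ± 0.32 in heat-exposed and 12.37 ± 0.43 in control trunks (SD) and a difference of -1.52 ± 0.18 (adjusted p = 4.34e-05). The cholesteryl ester transfer protein gene cetp was 1.06 ± 0.26 higher (adjusted p = 0.0104). The gene ldlrap1a, an adaptor of the LDL receptor, differed by -0.70 (adjusted p = 0.0227). Scarb1 was also high in ovaries, at 13.21 ± 0.63 in heat-exposed and 13.67 ± 0.28 in control ovaries, and oocyte markers were lower in heat-exposed trunks, as given above. The part of oocytes in the scarb1 difference was not tested.

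Of 27 clotting and fibrinolysis genes that the name pattern left out, 3 were called higher, 3 lower and 21 not called. The gene vwf (von Willebrand factor, which carries factor VIII in plasma and is made by endothelium) was 1.52 ± 0.32 higher, and the tissue factor gene f3b, the trigger of clotting, was 1.19 ± 0.20 higher (adjusted p = 0.00471 and 0.000858). The protease receptor gene f2rl1.1 differed by -1.06 and the urokinase-type gene plaub by -0.96 (adjusted p = 0.00574 and 0.0123). Both f3b and f2rl1.1 were high in ovaries, though they went opposite ways in heat-exposed trunks. In heat-exposed and control ovaries f3b had means of 12.64 ± 0.96 and 13.60 ± 0.23 (SD), and f2rl1.1 had 11.79 ± 1.22 and 12.85 ± 0.08. Of 47 other liver plasma proteins and hepatocyte enzymes, 1 was called higher, the complement gene c3b (0.97, adjusted p = 0.00799), and 3 lower: the haem carrier gene hpx (-1.22, adjusted p = 0.0092), the complement gene c7 (-1.21, adjusted p = 0.031) and hpda, an enzyme of tyrosine breakdown (-0.79, adjusted p = 0.0427). The mean of the 14 hepatocyte markers was 13.22 ± 0.18 in heat-exposed and 13.42 ± 0.12 in control trunks.

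In adult ovaries no gene was called, among the 54 or in the whole table (0%), though 10 of the 54 and 3334 of the 31475 rows had an unadjusted p below 0.05. Over the 36 plasma genes the median difference was 0.70 and 29 were above 0, beside a median of -0.06 over all rows, of which 14705 were above 0. Without heat ovaries 2 and 4 the median over the 36 genes was 0.19, with 26 above 0. Over all rows it was then -0.0014, with 15683 of 31475 above 0. The heat-exposed ovaries had a mean of 8.34 ± 0.63 over the 14 hepatocyte markers and control ovaries 7.40 ± 0.74, and the means over 13 exocrine pancreas markers were 12.45 ± 0.35 and 10.00 ± 1.33. Lists of other tissues also had medians above 0. These were 0.89 over 15 fibroblast markers, 0.79 over 19 leukocyte and thrombocyte markers and 1.88 over 14 spermatogenic cell markers. The medians were 0.20 over 12 intestine markers, 0.04 over 15 skeletal muscle markers and -0.58 over 13 oocyte markers. The part of neighbouring organs or of other tissues in these differences was not tested.

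Over the 12 apolipoproteins the median ovary difference was 0.73, close to that of all 36 plasma genes, and 11 were above 0. Those of apoa1a and apoc1l are given by array. Apoa1a had 10.29, 13.27, 11.20 and 12.88 in the heat-exposed ovaries, against 10.05, 10.07, 8.91 and 10.82 in the control ovaries. Its groups overlapped, with ovaries 2 and 4 the highest of the heat-exposed, and the difference was 1.95 ± 0.70 (adjusted p = 0.434). Apolipoprotein C-I (apoc1l, now apoc1) had 12.29, 13.60, 11.79 and 13.61 in heat-exposed ovaries and 10.62, 11.30, 9.91 and 13.11 in control ovaries, a difference of 1.59 ± 0.72 (adjusted p = 0.434). Without heat ovaries 2 and 4 these differences were 0.78 and 0.80.

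The 2 factor IX genes had values that went opposite ways on the same ovaries. Factor IX, in mammals a liver protease that factor VIII helps to activate factor X, has the copies f9a and f9b here. For f9a the heat-exposed ovaries had 11.35, 9.14, 11.27 and 9.97 and the control ovaries 11.57, 11.95, 11.84 and 11.65, with no overlap. For f9b the heat-exposed ovaries had 7.54, 11.49, 8.10 and 11.39 and the control ovaries 8.08, 8.08, 7.65 and 8.17. On both genes heat ovaries 2 and 4, which carry the spermatogenic markers, lay on the side of the testis values, and heat ovaries 1 and 3 lay near the controls. The differences of -1.32 ± 0.50 for f9a and 1.63 ± 0.90 for f9b (adjusted p = 0.434 and 0.435) became -0.44 and -0.17 without ovaries 2 and 4.

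Non-overlapping ovary groups were found for 4 genes, named here because their values were seen to be apart: f10, serpinb1l2 and serpinf1 higher and f9a lower after heat exposure, where 2.61% of all rows were apart upward and 3.37% downward. Pigment epithelium-derived factor (serpinf1), a secreted serpin that inhibits no protease, had 8.63, 10.74, 8.79 and 12.31 in heat-exposed ovaries and 6.66, 7.74, 7.37 and 7.83 in control ovaries. All 4 heat-exposed ovaries exceeded all 4 controls, with a difference of 2.72 ± 0.79 (adjusted p = 0.434) that was 1.32 without ovaries 2 and 4. Factor X (f10), the protease that turns prothrombin into thrombin, had 10.30, 11.45, 10.13 and 11.34 in heat-exposed and 10.05, 10.02, 9.84 and 9.91 in control ovaries. Its 4 heat-exposed ovaries were also the higher ones, by 0.85 ± 0.36 (adjusted p = 0.434), and by 0.26 without ovaries 2 and 4. The clade B serpin serpinb1l2 had 6.40, 8.21, 5.91 and 10.12 in heat-exposed and 5.04, 5.21, 5.39 and 5.03 in control ovaries, a difference of 2.49 ± 0.82 (adjusted p = 0.434), or 0.99 without ovaries 2 and 4. The 4 control ovaries lay below the lower quartile of their arrays for this gene.

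In adult testes 0 of the 54 genes were called, in a comparison that called 0.0635% of all rows (0.054% higher and 0.00953% lower). No gene of the 54 had testis groups that were apart, beside 0.0286% of all rows upward and 0.0159% downward. The median difference was 0.04, beside 0.02 over all rows, and 3 genes had an unadjusted p below 0.05, none of them in a plasma class. The smallest adjusted p belonged to apobec2a, with 8.97 to 10.26 in heat-exposed and 8.19 to 9.77 in control testes and a difference of 0.70 ± 0.20 (adjusted p = 0.189). The collagen chaperone genes serpinh1a and serpinh1b, whose product is the heat-shock protein Hsp47, differed by -0.43 ± 0.16 and -0.74 ± 0.32 (adjusted p = 0.321 and 0.377). In heat-exposed trunks 5 days after the exposure the same genes differed by 0.10 and -0.24, and neither was called.

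The heat effect was not called different between ovary and testis for any of the 54 genes, where 1.21% of all rows were called (0.721% higher and 0.486% lower). The ovary and testis effects in this comparison rest on the same control gonads as the results above. Serpinf1 came nearest, with an ovary effect that exceeded the testis effect by 2.75 ± 0.71 (adjusted p = 0.0513). It was followed by apoc1l, at 1.59 ± 0.52 (adjusted p = 0.0927), and by f9a, at -1.85 ± 0.65 (adjusted p = 0.11). Without heat ovary 1 or without heat ovary 3, either of which leaves ovaries 2 and 4 in place, 5 genes were called higher and 1 lower, among them apoc1l, f9b and f10 higher and f9a lower. Without ovaries 2 and 4 there were 0. The share of all rows called in these reduced fits was not counted, so their counts have no background beside them.

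**Figure D3:**
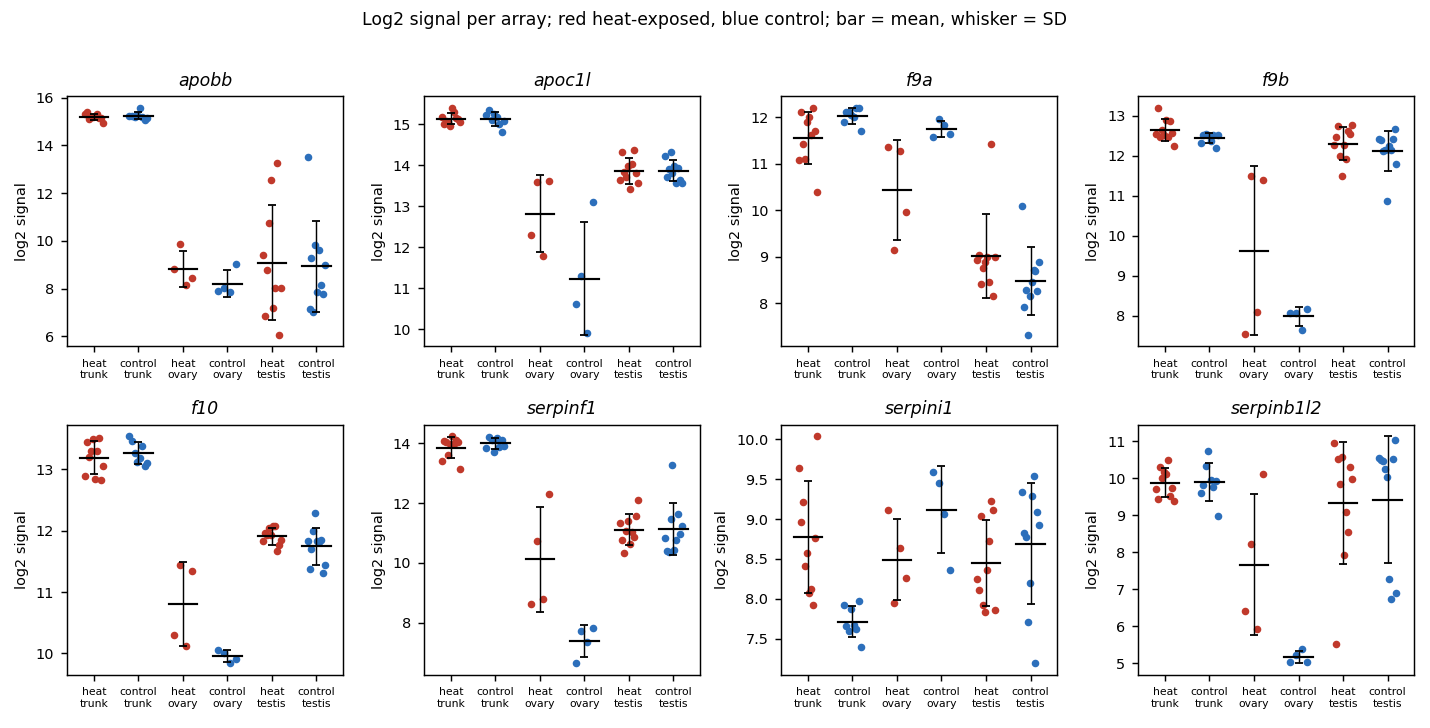
Log2 signal of 8 genes on every array, heat-exposed in red and control in blue; the bar is the group mean and the whisker the SD (n = 10, 8, 4, 4, 10 and 10 from left to right, y axes differ). Heat ovaries 2 and 4 sit at 11.49 and 11.39 for f9b, near the testes, while heat ovaries 1 and 3 sit at 7.54 and 8.10, near the control ovaries.

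Control testes and control ovaries differed at many of the 54 genes, as at many of all rows. Of the 54 genes 26 were higher in testis and 7 lower, where 57.8% of all rows were called, 28.3% higher and 29.6% lower. In the plasma classes 17 of 36 were higher and 2 lower, and the median difference was 1.09, beside 0.01 over all rows. Of the other 18 genes 9 were higher and 5 lower. Testis and ovary groups were apart upward for 13 of the 54 genes and downward for 5, beside 19% and 21.4% of all rows.

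Of the 12 apolipoproteins 9 were higher in control testes, 0 were lower, and all 12 had differences above 0. For apoa4 and apoeb all 4 control ovaries lay below the lower quartile of their arrays, and for apob and apoba 2 did. The sizes of these 4 differences are thus uncertain, and apoeb had only 5.57 to 6.21 in control testes. Apoa1a ran from 10.28 through 13.05 to 14.50 in the 10 control testes, against 10.05, 10.07, 8.91 and 10.82 in the control ovaries, and was 2.90 ± 0.75 higher (adjusted p = 0.00163). Apoc1l ran from 13.56 through 13.85 to 14.31 in control testes, against 10.62, 11.30, 9.91 and 13.11 in control ovaries. Every testis exceeded every ovary, and the testes were close together, with an SD of 0.26, for a difference of 2.63 ± 0.37 (adjusted p = 7.36e-07). Apoa1b and apoba were 2.45 ± 0.64 and 2.08 ± 0.69 higher (adjusted p = 0.00173 and 0.0111). The uncalled ones were apob, apobb and apoc2, the activator of lipoprotein lipase, at 1.05, 0.72 and 0.41. Single ovaries decided some of the calls: apoba and apom were not called without control ovary 2 (adjusted p = 0.0669 and 0.116), nor was apoea without control ovary 3 or control ovary 4 (adjusted p = 0.0526 and 0.0510).

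Among the clotting factors the 2 factor IX genes divided between the sexes. F9b ran from 10.87 through 12.19 to 12.66 in control testes and was 4.12 ± 0.48 higher there than in control ovaries, which had 7.65 to 8.17 (adjusted p = 4.45e-08). F9a ran from 7.32 through 8.37 to 10.10 in control testes and differed by -3.27 ± 0.46 from control ovaries, which had 11.57 to 11.95 (adjusted p = 7.78e-07). On neither gene did any control testis overlap any control ovary. Factor X (f10) was 1.79 ± 0.20 higher in testis (adjusted p = 2.89e-08), with 11.31 to 12.28 in testes and 9.84 to 10.05 in ovaries. F8 differed by -0.99 ± 0.35 (adjusted p = 0.0183), and this call was lost without control ovary 3 or control ovary 4 (adjusted p = 0.0659 and 0.170). Prothrombin (f2), f5, f7 and f7i were not called. Of the fibrinogen chains only fgb, the Bβ chain, was called, at 2.50 ± 0.48 (adjusted p = 6.70e-05), while fga and fgg differed by -0.07 and 0.94.

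Serpins went both ways. Alpha-1-antitrypsin (serpina1), the main plasma inhibitor of neutrophil elastase, was 2.83 ± 0.70 higher in control testes, and serpina7, the thyroxine-binding globulin, 3.16 ± 0.91 higher (adjusted p = 0.00113 and 0.00414). Serpinf1 was 3.74 ± 0.50 higher, with 10.38 to 13.25 in testes and 6.66 to 7.83 in ovaries (adjusted p = 4.47e-07). Serpinb1l2 was 4.26 ± 0.90 higher (adjusted p = 0.000195), with testes that spread from 6.73 to 11.03. All 4 control ovaries lay below the lower quartile of their arrays for this gene, at 5.03 to 5.39, so the size of the difference is uncertain. Serpinb1l4 was 2.28 ± 0.43 higher (adjusted p = 5.53e-05). Serpine2, which inhibits thrombin at cell surfaces, went the other way and differed by -0.80 ± 0.25 (adjusted p = 0.00684). The clade B serpin serpinb1l3 was lower in testis too, with 12.40 to 13.39 in testes and 13.48 to 13.96 in ovaries and a difference of -0.76 ± 0.20 (adjusted p = 0.0021). Of the genes that only share letters with the pattern, f11r had 11.47 to 12.24 in testes and 13.06 to 13.26 in ovaries, a difference of -1.29 ± 0.20 (adjusted p = 2.93e-06). For apoa1bp the testes had 11.55 to 12.28 and the ovaries 12.46 to 12.73, a difference of -0.63 ± 0.16 (adjusted p = 0.00117). None of these last 3 genes had a testis that overlapped an ovary. Of the ITIH chains, itih3 was 2.25 and itih5 1.34 higher (adjusted p = 9.44e-05 and 0.000197), and itih2 and itih6 differed by -0.04 and 0.47 and were not called. Below the lower quartile of their arrays lay 3 of the control ovaries for itih3 and all 4 for itih5, so these sizes are uncertain too.

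**Figure D4:**
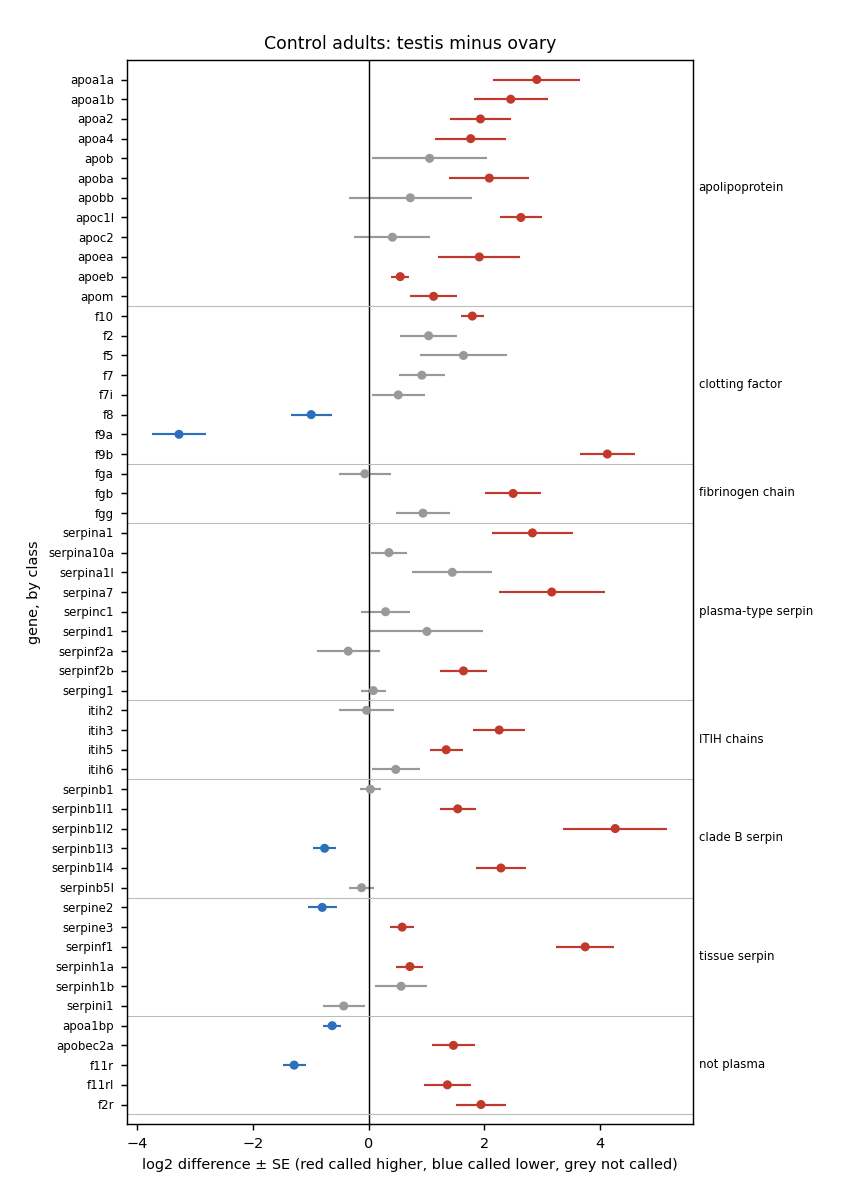
Log2 difference, control testes minus control ovaries, for 53 of the 54 genes by class; points are limma estimates and bars the SE (n = 10 and 4). Red points were called higher in testis (26 drawn) and blue points lower (6 drawn); f9b at 4.12 and f9a at -3.27 stand on opposite sides of 0.

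Liver and pancreas markers differed in the same direction between the gonads, as did markers of several other tissues. Of the 14 hepatocyte markers 6 were called higher in control testes and 0 lower, with means of 8.89 ± 0.94 in testes and 7.40 ± 0.74 in ovaries, and of the 13 exocrine pancreas markers 12 were called higher. Of 15 skeletal muscle markers 12 were called higher and 0 lower, and of 15 fibroblast markers 11 and 1. Of 14 neuronal markers 9 were higher and 0 lower. Of 12 intestine markers 3 were higher and 1 lower, of 13 epidermis markers 4 and 2, and all 13 oocyte markers were lower. The part of these tissues in the plasma gene differences was not tested. With the hepatocyte marker mean as a covariate, 15 of the 54 genes were called higher in testis, and apobb and apoc2 were called lower, at -2.23 and -1.20 (adjusted p = 0.000749 and 0.03). The share of all rows called in that fit was not counted, so the 15 has no background beside it. Testes and ovaries had a shared slope in it. Without the covariate apobb and apoc2 had positive differences and were not called, as given above. Of 47 other liver plasma proteins and hepatocyte enzymes, 17 were higher and 1 lower, led by the fetuin gene ahsg (3.75), bhmt, an enzyme of methionine metabolism (3.63), and the transthyretin gene ttr (3.36), with adjusted p of 4.04e-08, 6.05e-05 and 1.25e-05. The lower one was c7, at -1.79 (adjusted p = 2.61e-05).

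Lipoprotein and clotting partners were called in both directions between the control gonads, as were all rows, of which 28.3% were higher and 29.6% lower. Of the 26 lipoprotein enzymes, receptors and assembly factors 7 were higher and 10 lower in control testes. Scarb1 and vldlr, whose product in birds takes up yolk precursors into the oocyte, differed by -3.46 ± 0.22 and -3.25 ± 0.22 (adjusted p = 1.26e-12 and 5.18e-12). Lipoprotein lipase (lpl), which apoC-II activates, was 3.04 ± 0.48 higher (adjusted p = 5.07e-06). Of the 27 clotting genes outside the name pattern, 7 were higher and 8 lower, with f2rl1.1 at -6.02, f3b at -3.58 and the thrombocyte integrin gene itga2b at 2.78 (adjusted p = 1.11e-10, 1.05e-08 and 0.000109).

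Among the 20 testes the plasma genes differed in how far they followed the hepatocyte markers. A limma fit over all rows, with temperature as a term and chosen after the data were seen, gave each gene's slope per unit of the hepatocyte marker mean, a list that holds none of the 54 genes. Of the 54, 17 rose with the markers and 0 fell, where 0.343% of all rows rose. All 17 belong to the 36 plasma genes, and 0 of the other 18 genes rose. The 17 were apoa1a, apoa1b, apoa2, apob, apoba, apobb, apoc2, f5, f9a, fga, fgb, fgg, serpina1, serpina1l, serpina7, serpind1 and serpinf2a. Some uncalled plasma genes had slopes of similar size. Those of apoa4, apoea and itih2 were 0.81, 0.79 and 0.68 (adjusted p = 0.306, 0.537 and 0.0627), beside 0.67 for the called f9a. The calls thus cut a range of slopes at a threshold.

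The steepest slope was that of apobb, at 2.22 ± 0.15 log2 units per log2 unit (adjusted p = 3.79e-08). Apobb had 13.28 in heat testis 8, 12.56 in heat testis 5 and 13.53 in control testis 1, the 3 testes with the highest marker means (10.66, 10.42 and 11.22). Heat testis 8 also had the highest intestine marker mean of the testes, at 10.63, while heat testis 5 and control testis 1 had 7.35 and 7.83. The part of intestine in these slopes was not tested. Slopes of 1.72 ± 0.13 for serpina7 and 0.82 ± 0.10 for fgb had adjusted p of 2.13e-07 and 8.20e-05. Without these 3 testes, 6 of the 54 genes were called, beside 17 of all 31475 rows. The 6 were apoa1b, apoa2, apobb, fgg, serpina1 and serpina7. The mean of 14 markers over the other testes ran between 7.85 and 9.68.

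Some genes that were high in testis showed no such slope. Apoc1l had 0.08 ± 0.08, f10 -0.00 ± 0.07, f9b -0.07 ± 0.11 and serpinf1 0.01 ± 0.17, and none was called. Heat testis 8 and control testis 4, with marker means of 10.66 and 7.85, had 14.37 and 14.31 for apoc1l. The same 2 testes had 13.28 and 7.02 for apobb. These 4 genes were also among those called higher in control testis than in control ovary with the hepatocyte marker mean as a covariate. As their slopes on that mean were near 0, the covariate had little room to change their differences. The covariate fit is therefore not a separate result for these 4 genes.

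**Figure D5:**
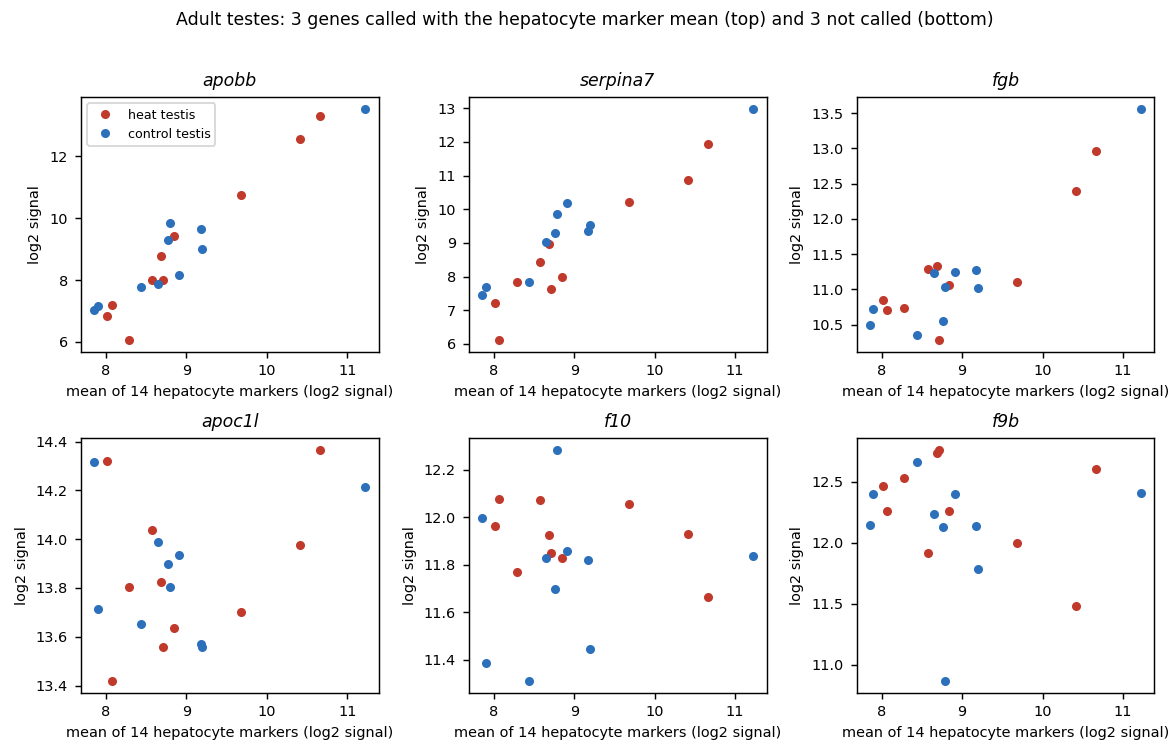
Log2 signal of 6 genes (y) against the mean of 14 hepatocyte markers (x, log2 signal) in 10 heat-exposed testes (red) and 10 control testes (blue). Apobb, serpina7 and fgb (top) climb with the markers at 2.22, 1.72 and 0.82 units per unit, and apoc1l, f10 and f9b (bottom) have slopes of 0.08, -0.00 and -0.07.

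Several of the 54 genes lie side by side in the genome (RefSeq annotation of assembly GRCz12tu, used for names and order only, in which 52 genes were placed). Of 13 pairs of neighbours with at most 10 protein-coding genes between them, 5 had the same call between control testis and ovary and 8 had different calls. For the slope on the hepatocyte markers 11 pairs had the same call and 2 different ones. In most of these 11 pairs neither gene was called, and only 17 of the 54 genes were called at all. How many pairs would share a call in a random order of the genes was not worked out. The genes f7, f7i and f10 follow each other with no protein-coding gene between them, and of the 3 only f10 was called between control testis and ovary (1.79, beside 0.92 and 0.51). Serpinf2a and serpinf1 are adjacent, with testis minus ovary differences of -0.35 and 3.74. In the cluster of apoeb, apoc1l, apoa2 and apoc2, the adjacent pair apoa2 and apoc2 rose with the hepatocyte markers in testes, at 0.84 and 1.18, while apoc1l and its neighbour apoeb had slopes of 0.08 and -0.04. Apoeb lay below the lower quartile of the array on 28 of 46 arrays, with 5.03 to 6.21 in gonads. A slope of apoeb could therefore hardly be seen. Both members rose in the pair serpina1l and serpina1, at 1.24 and 1.31, and in the pair fgb and fga, at 0.82 and 0.72.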

How the data were processed

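Per the labels' protocols, total RNA (Trizol) went through whole-transcriptome amplification (Ovation V2, NuGen) before Cy3 labelling. The authors deposited log2 values; the submitters' processing notes name RMA, which corrects background, normalises by quantiles and summarises probes. The version of RMA, the annotation, the set of arrays it was run on and any batch were not given in the sources used here. Amplification and quantile normalisation can compress or shift differences. The design text speaks of 10 juveniles in each group, and 8 control trunks are labelled. No array duplicated another (highest correlation 0.972).

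Groups were compared by two-sided moderated tests (limma 3.58.1 in R 4.3.3, lmFit then eBayes) over 31475 rows, with Benjamini-Hochberg adjustment at 0.05. The p-values set a difference against the spread between samples within groups. Heat effects in trunks, ovaries and testes were fitted on their own 2 groups. Control testis minus ovary and the difference of heat effects were fitted on all 28 adult arrays. Their SEs and p-values thus rest on a spread that includes the heat-exposed gonads. The script was tested on simulated data. The 54 genes were not filtered on level; counts cover all of them, and the values of 1 are not reported here. Members, gene lists and tests were chosen with earlier results of these data known; of 14 lists, the neuronal one was added later. The lists of intestine, gonad somatic, fibroblast, leukocyte, skeletal muscle and epidermis markers gave 0 higher and 1 lower of 12, 1 and 1 of 14, 0 and 2 of 15, 0 and 0 of 19, 3 and 1 of 15 and 2 and 1 of 13 in heat-exposed trunks. Named genes are all called ones where 12 or fewer passed in a direction, otherwise the 12 largest, plus a fixed panel and up to 4 called genes of each pathway list. Alternatives were the variance prior, a filter on rows of low mean level (under the 0.25 quantile), centring, array weights, all 46 arrays in 1 model, the replicate block, left-out replicates and arrays, and a hepatocyte covariate.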

Additional observations from a re-analysis of the deposited data

Results flagged for a closer look

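In 28 of 276 groups of arrays tested (46 genes in 6 groups), 1 array lay far from the rest of its group. The rule's nominal rate is about 1 in 20, for independent groups. Genes that are high together on 1 array are not independent, and the share over all rows was not counted. Control testis 1 was such an array for 8 genes, all high: apoba 11.10, apobb 13.53, f5 12.36, fgb 13.56, serpina1l 13.29, serpina7 12.99, serpinc1 7.44 and serpind1 9.56. Its hepatocyte marker mean of 11.22 was the highest of the 28 gonads. Control testis 5 was high for itih6 (8.28) and serpinf1 (13.25) and low for f9b (10.87), and control testis 8 was high for apoea (11.86). Among heat-exposed testes, replicate 5 was high for f2 (10.70) and replicate 8 for f9a (11.43).

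In control ovaries, replicate 4 was high for apobb (9.04) and serpina1 (11.28), replicate 1 low for apoc2 (7.14), replicate 2 low for apom (7.02) and serping1 (5.27), and replicate 3 low for f9b (7.65). In trunks, heat-exposed replicate 2 was high for itih2 (14.63) and replicate 10 low for serpinh1b (10.37). Control trunk 2 was high for fgg (12.36), serpine2 (13.17) and serping1 (6.63), control trunk 5 high for apobb (15.58), control trunk 6 low for apoa1b (14.95) and control trunk 7 low for serpinb1l3 (12.81).

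For serpini1 every heat-exposed trunk lay above the mean of control trunks and every heat-exposed ovary below the mean of control ovaries, with differences of 1.06 and -0.63 that stand 1.69 apart; this difference was not tested.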

How the results depend on the processing

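Many of the reported counts were 0, and a 0 that stayed 0 was taken as unchanged. Counts of called genes were unchanged or within 1.5 times the reported ones under most alternatives, with these exceptions, whose cause was not tested. With all 46 arrays in 1 model, 2 genes were called higher in heat-exposed trunks, 8 in heat-exposed ovaries, and 4 higher and 1 lower for the difference of heat effects. That difference gave 1 gene higher with a trended, robust variance prior, 1 without rows of low mean level and 1 with centred arrays, and 0 to 5 higher and 0 to 1 lower when 1 ovary was left out. With the hepatocyte covariate, added after the data were seen, 15 genes were higher in control testis than in control ovary, and apobb and apoc2 changed sign (-2.23 and -1.20). Apart from the testis slope, shares of all rows called were not counted under the alternatives. The testis slope called 6 genes without 3 testes, beside 17 of all 31475 rows. Samples of the same number shared little, with correlations of their deviations between -0.08 and 0.15. Best with their own number were 2 of 8 trunk pairs, 3 of 4 ovary pairs and 1 of 10 testis pairs. The numbers were therefore not used as pairs in the main fits, though 4 ovary pairs are too few to exclude a pairing there. With the replicate block, 4 genes were higher in trunks, 0 in ovaries and testes, 23 higher and 7 lower in testis than in ovary, and 0 for the difference of heat effects. Without heat trunks 1, 2 and 10, 4 genes were higher in trunks. With 4 ovaries per group, ovary differences of the size seen for apoa1a and apoc1l did not pass, and genes near the lower quartile of the arrays have little room to fall.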

Other observations

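The transthyretin gene ttr, a hepatocyte marker outside the name pattern, had an SD of 1.92 among heat-exposed and 1.94 among control trunks, where the median SD of the 36 plasma genes was 0.26 and 0.18. Its values ran from 9.27 to 14.21 in heat-exposed and from 8.74 to 13.75 in control trunks, and its difference was -0.15 ± 0.84 (adjusted p = 0.935).

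Serpinb1l2 was spread within testes in a way that did not follow the hepatocyte markers (slope 0.21 ± 0.40). Heat testes 2 and 6 had 5.52 and 7.94, control testes 6, 7 and 10 had 7.28, 6.73 and 6.90, and the highest testes of the 2 groups had 10.97 and 11.03.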
